A study of Homo sapiens with 4 samples.

Results

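The comparison described here is that of 22Rv1 cells transfected with an siRNA against OCT1 (siOCT1) and 22Rv1 cells transfected with a control siRNA (siControl), both kept in ethanol vehicle without added androgen. Each side was 1 array. Its members were the named genes whose deposited log2 signal lay above background on at least 1 of these 2 arrays, where background is the level that 95% of an array's negative control probe sets do not exceed. The rule kept 8128 of 17687 named genes, 6678 of them above background on both arrays, 1319 on the siControl array only and 131 on the siOCT1 array only. Just outside the rule lay GPAT3 (6.62 with siControl, 4.63 with siOCT1) and GPR137C (6.62 and 6.57), and just inside it PPP6R2 (6.62 and 6.75) and ACBD7 (6.62 and 4.48).

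22Rv1 is a human castration-resistant prostate cancer line, grown from a xenograft that relapsed after castration. All cultures of the series were held for 3 days in medium with 2.5% charcoal-stripped serum, which is poor in steroids, received their siRNA 48 h before the ligand, and were collected 24 h after the ligand was added. The groups were siControl in vehicle, siOCT1 in vehicle, and the same siRNAs with 10 nM dihydrotestosterone (DHT), with 1 array each. With 1 array per group no difference has a replicate check and no test was made, and precision is limited by the number of arrays. The level of POU2F1, the gene that encodes OCT1, was not analysed here, so siOCT1 stands for the transfection as labelled, and neither the number of siRNA sequences behind each label nor that of cell clones is given in the labels.

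OCT1 is a widely expressed POU-domain transcription factor that binds the octamer motif ATGCAAAT. It is known for its part in the transcription of histone H2B genes and small nuclear RNA genes, and in prostate cancer cells for binding beside the androgen receptor at androgen-responsive enhancers. Replication-dependent histone genes are transcribed in S phase, together with the enzymes that copy DNA, so the histone, replication and mitosis genes are taken first below.

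On the deposited scale more members had lower than higher signal with siOCT1, a balance that turned with the centring given next. Of the 8128 members, 1483 were at least 2-fold lower (18.2%) and 899 at least 2-fold higher (11.1%), so 37.7% of those past 2-fold were higher. This split turned to 53.1% higher (1259 higher, 1111 lower) when each array was centred on its positive control probe sets, whose median was 0.21 lower on the siOCT1 array (a shift of -0.21), so neither direction can be called the larger independently of that choice. The median difference of all named genes was 0.04 on the deposited scale and 0.25 after that centring, and the medians below are to be read against it. Among the 6678 members above background on both arrays, 774 were higher and 927 lower.

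At larger folds more members were lower under either centring. At 4-fold, 161 members were higher and 379 lower (233 and 276 after centring on the positive controls), and at 8-fold 28 were higher and 79 lower (34 and 63). Among members above background on both arrays, 117 were higher and 188 lower at 4-fold, and 11 and 32 at 8-fold, on the deposited scale. Counts for these members were not made after that centring. The background differed between the arrays, 6.62 with siControl and 7.39 with siOCT1, and 556 of the 1319 members seen above background with siControl only were counted as lower. These members could pass 2-fold downward only, and the 131 seen with siOCT1 only could pass it upward only. Their direction therefore follows from the rule, and the first group adds to the lower counts. For such genes only a bound on the size can be given, the brighter signal over the background of the dim array, and by this bound 181 members were at least 2-fold lower and 87 at least 2-fold higher. The counts for gene lists below are counts of members by the plain difference of signals, so a counted gene that lies below background on 1 array may have a bound under 2-fold, while list medians cover all list genes on the array. These list counts are to be read against all 8128 members, of which 18.2% were lower and 11.1% higher. After centring on the positive controls 1111 of them were lower and 1259 higher. The negative control probe sets show how uncertain dim signals are: 21.1% of the 612 were past 2-fold higher and 16.8% past 2-fold lower. Positive control probe sets passed 2-fold less often upward (4.92%) than downward (14%).

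**Figure D1:**
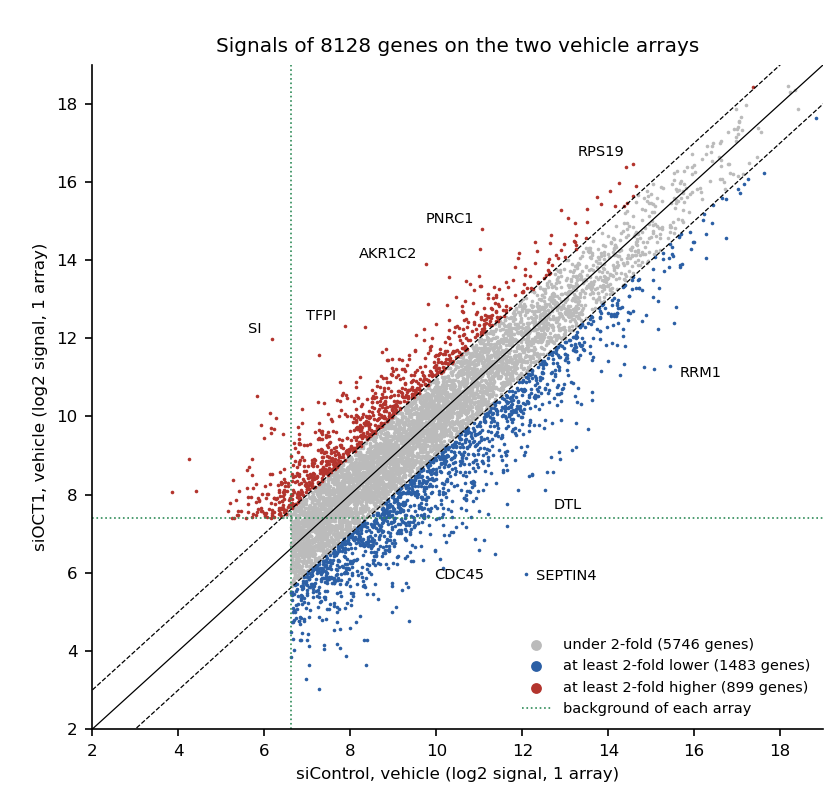
Log2 signal of each of the 8128 members on the siOCT1 vehicle array (vertical) against the siControl vehicle array (horizontal), 1 point per gene. Dashed lines mark 2-fold, dotted lines the background of each array (6.62 and 7.39); 1483 genes lie below the lower dashed line and 899 above the upper one.

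The arrays carried the profile of a prostate epithelial line. Of 8 markers listed for 22Rv1, 6 were on the array and all 6 were members, with signals from 10.62 (HOXB13) to 14.06 (FOXA1) on the siControl array and from 11.21 to 14.46 on the siOCT1 array. Of 19 markers of basal, stromal, endothelial, immune and blood cells on the array, 17 were below background on both vehicle arrays. The exceptions were COL1A2, at 6.63 and 6.46, and HBA1, at 13.97 and 13.53, while HBB was at 3.09 and 3.90.

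Genes that copy DNA were the group with the lowest signal relative to siControl. DTL, a substrate receptor of the ubiquitin ligase that clears licensing factors in S phase, had a log2 signal of 12.54 with siControl and 8.12 with siOCT1, a difference of -4.41. RRM2 and RRM1, the subunits of ribonucleotide reductase, which makes deoxyribonucleotides, went from 12.72 to 8.57 (-4.16) and from 15.43 to 11.28 (-4.15). TYMS, thymidylate synthase, was at 13.15 and 9.14 (-4.01). All 4 were above background on both arrays, and all 4 were also lower in the DHT pair of arrays, by differences of -3.22, -3.34, -3.88 and -3.28.

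The 15 lowest differences among genes above background on both arrays went on with CCNA2 (cyclin A2, 13.24 and 9.23), CMC2, a mitochondrial protein (12.57 and 8.58), the histone gene H2BC14 (12.87 and 8.91), RFK, riboflavin kinase (11.64 and 7.75), CDV3 (15.07 and 11.20), PSMD10, a chaperone of proteasome assembly (11.21 and 7.51), and MCM4 (12.22 and 8.51). The remaining 4 were FAM72A, FAM72B, FAM72C and FAM72D, near-identical copies whose probes can read each other's transcripts, with differences from -3.86 to -3.70 that count as 1 observation.

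Members that lay under background with siOCT1 had bounds of similar size. SEPTIN4, a septin GTPase, was at 12.08 with siControl and 5.96 with siOCT1, which gives at least 25.7-fold. DHRS13, a short-chain dehydrogenase, was at least 18.9-fold lower, and GGCT, an enzyme of glutathione breakdown, at least 12.2-fold lower. The replication genes CDC45 (11.36 and 6.48, at least 15.6-fold), FEN1, the flap endonuclease of Okazaki fragment processing (11.10 and 6.83, at least 13-fold), and CDC6, the loader of the MCM helicase (10.59 and 7.27, at least 9.15-fold), were in this set. So were OXCT1, the first enzyme of ketone body use (10.91 and 6.86, at least 11.4-fold), and TMEM64 (10.69 and 7.18, at least 9.79-fold).

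On the other side, TFPI, tissue factor pathway inhibitor, an anticoagulant protein, had the highest difference among genes above background on both arrays. Its signal was 7.87 with siControl and 12.31 with siOCT1 (4.43). Next came AKR1C1 (7.27 and 11.57) and AKR1C2 (9.75 and 13.90), aldo-keto reductases that act on steroids, with differences of 4.29 and 4.14. ARHGAP29, a GTPase-activating protein, followed at 8.34 and 12.28, and PNRC1, a nuclear receptor coregulator, at 11.07 and 14.79.

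Other genes among the 15 highest were C5, a complement component (3.31), LGALS1, the lectin galectin-1 (3.28), SH3RF1, a scaffold of JNK signalling (3.28), MBNL2, a splicing regulator (3.13), the neighbouring ectoenzyme genes ENPP4 (3.12) and ENPP5 (3.07), ODF2L (2.96), SEPTIN6 (2.95), SLC40A1, the iron exporter ferroportin (2.95), and PCMTD1 (2.93). Every gene among these 15 was also higher in the DHT pair, with PCMTD1 at the smallest difference there, 1.26.

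Genes above background only with siOCT1 were led by SI, sucrase-isomaltase, a brush-border enzyme (6.17 and 11.97, at least 40.8-fold), and UGT2B15, which conjugates androgens with glucuronic acid (5.82 and 10.53, at least 15-fold). HMOX1, heme oxygenase 1, was at 6.13 and 10.10 (at least 11.1-fold), and A1CF, an RNA-binding protein of liver and intestine, at 6.26 and 9.95 (at least 10.1-fold). AKR1C3, which makes testosterone from androstenedione, was at 5.93 and 9.78 (at least 8.91-fold). TP53I3, a p53 target (at least 8.46-fold), SATB1, a chromatin organiser (at least 8.37-fold), and SP110, a nuclear body protein (at least 7.77-fold), completed the 8.

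**Figure D2:**
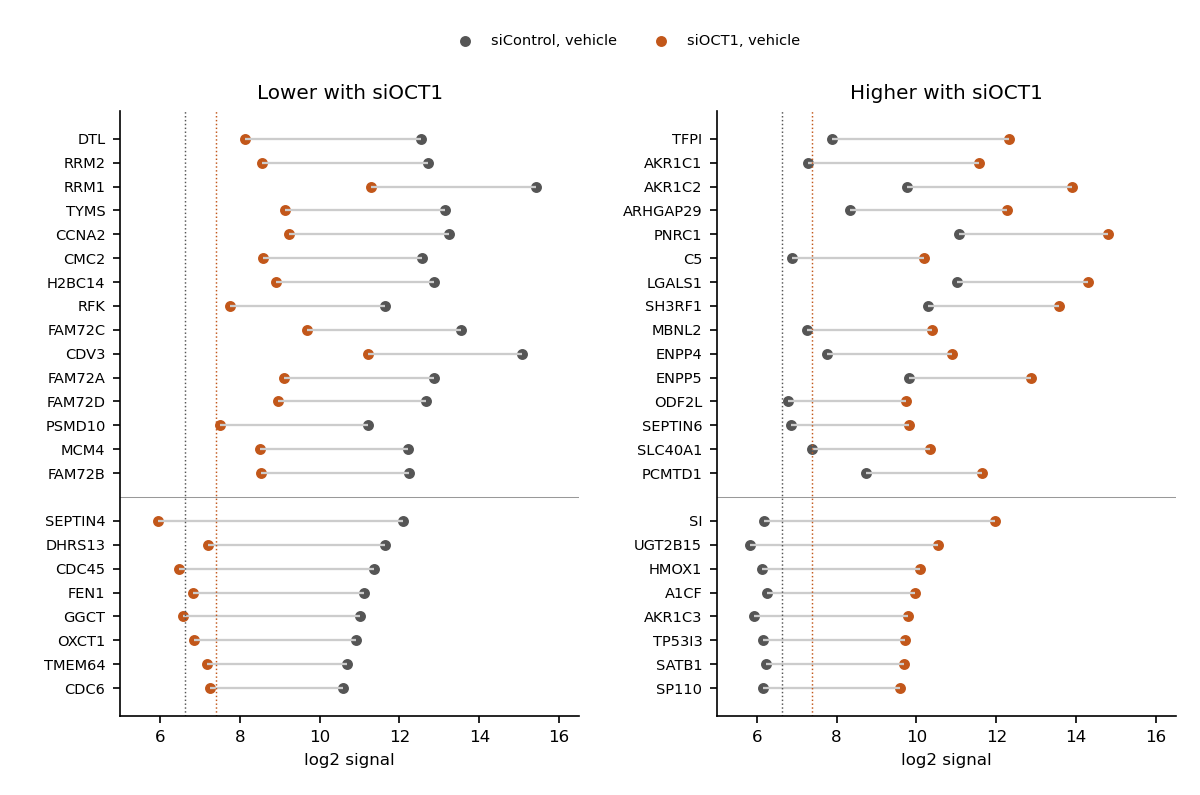
Log2 signal of 46 genes on the siControl (grey) and siOCT1 (orange) vehicle arrays, 1 array each. Upper rows are the 15 lowest and 15 highest differences among genes above background on both arrays, lower rows the 8 largest bounds each way; dotted lines are the backgrounds. DTL at the top left goes from 12.54 to 8.12, TFPI at the top right from 7.87 to 12.31.

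Seen as groups, the genes that license and fire replication origins were lower throughout. Of 31 such genes on the array, 27 were members, 25 were at least 2-fold lower and 0 higher, and all 31 differences were below 0 (30 after centring on the positive controls), with a median of -2.33 (all named genes 0.04). Raising values to the higher background moved this median to -1.30. Members above background on the siControl array only, among them CDC45, CDC6, MCM3 and MCM5, could be counted as lower only. Part of the lower count therefore follows from the rule, while the median over all 31 genes uses no filter. The same holds in the lists below wherever such members were counted. Of the 6 subunits of the MCM2 to MCM7 helicase, MCM6 (6.84 and 4.27) had no bound, since both values lay below the siOCT1 background, and the other subunits were at least 2-fold lower, with MCM7 at 12.50 and 9.71, MCM3 at 10.23 and 6.80 (at least 7.15-fold) and MCM5 at 10.18 and 6.97 (at least 6.91-fold). The 4 GINS subunits, which activate that helicase with CDC45, were past 2-fold too, GINS1 at 11.17 and 9.06.

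Within the origin recognition complex the subunits differed among themselves. ORC1 (9.63 and 6.67, at least 4.72-fold) and ORC6 (8.98 and 5.66, at least 3.0-fold) showed the larger differences. ORC3 and ORC5 were at -1.11 and -1.08, ORC2 at -0.79, and ORC4 at 8.54 and 8.51 (-0.03). ORC1 is the subunit whose level is known to vary through the cell cycle. CDT1 was below background on both arrays (6.37 and 4.13). Geminin (GMNN), the inhibitor of CDT1, was at 10.71 and 9.22.

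At the replication fork, 26 of 31 genes on the array were members, and 24 of these were at least 2-fold lower and 0 higher, with a median of -1.88 over all 31. PCNA, the sliding clamp, was at 14 and 11.41 (-2.59). Of the 5 subunits of the clamp loader RFC, 4 were past 2-fold, from RFC2 (10.75 and 8.09) to RFC3 (11.85 and 9.52), while RFC1 was at 10.67 and 10.55. The primase gene PRIM1 was at 11.43 and 9.49, the polymerase genes POLA1 and POLE at least 2.03-fold and 1.21-fold lower, and CHAF1B, of the complex that places histones on new DNA, at least 8.35-fold lower. Topoisomerase TOP2A was at 11.95 and 10.18.

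Enzymes of nucleotide supply followed the same direction, with 18 of 23 members at least 2-fold lower, 0 higher and a median of -1.37. TK1, thymidine kinase, was at 10.00 and 7.38 (at least 6.11-fold), and UMPS, which completes pyrimidine synthesis, at 11 and 7.57 (-3.43). CTPS1 was at 10.56 and 8.13. RRM2B, the p53-regulated subunit of ribonucleotide reductase, was the exception, at 9.53 and 10.52 (0.99).

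Genes of homologous recombination and the Fanconi pathway were mostly lower on the deposited scale, with 21 of 29 differences below 0 and 8 above. Of 29 on the array 23 were members, 15 of them at least 2-fold lower and 1 higher, with a median of -1.77, which was 0.00 once values were raised to the higher background since this setting brings every signal under that background to the same value. EXO1, a resection nuclease, was at 10.15 and 6.12 (at least 6.76-fold), XRCC2 at 11.55 and 8.58, RAD51C at 11.31 and 9.01, and UBE2T, the Fanconi ubiquitin-conjugating enzyme, at 14.88 and 12.61. BRCA1 was at least 1.69-fold lower (8.15 and 5.71), and the kinase gene ATM was at 10.04 and 10.52 (0.49). Of 22 members among the mismatch and excision repair genes 4 were lower, a share near that of all members, and the median of -0.14 becomes positive after centring on the positive controls; PARP1 was at 12.29 and 10.56.

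The regulators of the cycle showed lower cyclins and kinases beside higher CDKN1A and CDKN1B. Among cyclins, CDKs and their activators, 16 of 21 members were at least 2-fold lower and 0 higher, with a median of -1.68 (-1.03 with values raised to the higher background). CDK1 was at 10.15 and 8.06, CDK2 at 12.85 and 11.20, CCNB1 at 11.92 and 9.66, and CKS2, a CDK-binding subunit, at 11.60 and 9.10. CDC25A, the phosphatase that activates CDK2, was at 7.26 with siControl and 3.03 with siOCT1, and no bound can be given because its brighter value lay below the siOCT1 background. The G1 kinase gene CDK4 differed less, at 13.94 and 13.13, and cyclin D1 (CCND1) was at 16.41 and 16.54 (0.14).

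Among CDK inhibitors and pocket proteins, CDKN1A, which encodes p21, was at 11.67 and 13.32 (1.65), and CDKN1B, which encodes p27, at 9.43 and 10.91 (1.48). They were the 2 members of the list at least 2-fold higher, against 4 lower, among them CDKN3 (11.62 and 8.75) and the pocket protein gene RBL1 (9.55 and 7.48). After centring on the positive controls 4 were higher and 4 lower. RBL2, the pocket protein of resting cells, was at 10.46 and 11.29, and RB1 at 11.14 and 11.79, both under 2-fold on the deposited scale. SKP2, the ubiquitin ligase subunit that removes p27, was at 12.53 and 10.69.

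Among transcription factors of the cycle, 8 of 14 members were at least 2-fold lower and 1 higher (7 and 3 after centring on the positive controls), and the median of -0.93 over 17 genes became 0.00 with values raised to the higher background. FOXM1 was at 11.75 and 9.62, E2F8 at 9.36 and 4.76 (at least 3.92-fold), MYBL2 at 8.53 and 5.44 (at least 2.19-fold) and E2F1 at 7.89 and 3.87 (at least 1.41-fold). MYC, which drives growth and ribosome production, was at 11.87 and 10.27 (-1.60). In the DHT pair MYC had a difference of 0.20, and whether the pairs differ was not tested.

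Mitosis genes were lower as well. Of 34 members among the kinetochore and centromere genes, 27 were at least 2-fold lower and 0 higher (median -1.53), and of 28 members among spindle motors and mitotic kinases 23 were lower and 0 higher (median -1.60). With values raised to the higher background these medians were -1.40 and -1.28, beside -1.30 for the origin genes. AURKA was at 11.26 and 8.55, TPX2, its activator, at 10.88 and 8.33, PLK1 at 13.07 and 11.39, and MKI67, the proliferation marker, at 12.38 and 10.76. NDC80, which binds microtubules at the kinetochore, was at least 7.67-fold lower (10.33 and 7.05), and of the chromosomal passenger complex CDCA8 was at 10.29 and 6.96 (at least 7.45-fold) and AURKB at 8.17 and 5.94 (at least 1.71-fold).

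CENPE, a kinetochore motor, was at 7.70 and 7.63. Among anaphase and cytokinesis genes 11 of 27 members were lower (7 after centring on the positive controls) and 3 higher. CDC20, which activates the anaphase-promoting complex, was at 12.16 and 8.49 (-3.67), and UBE2S, its chain-forming enzyme, at 10.82 and 8.33. The septin genes differed among themselves: SEPTIN4 and SEPTIN3 were lower, SEPTIN6 (6.87 and 9.82) and SEPTIN11 (11.38 and 12.43) were higher, and SEPTIN2 was at 11.43 and 11.24.

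Of the condensin, cohesin and chromosome structure list, 12 of 20 members were at least 2-fold lower and 3 higher (median -1.27). Condensin carried much of this, with 6 of its 7 members past 2-fold, NCAPH at 11.63 and 9.01 and NCAPG at 11.52 and 9.52. In the cohesin core, SMC1A was at 11.50 and 8.98, but the 4 genes measured ranged from -2.52 to 1.71.

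**Figure D3:**
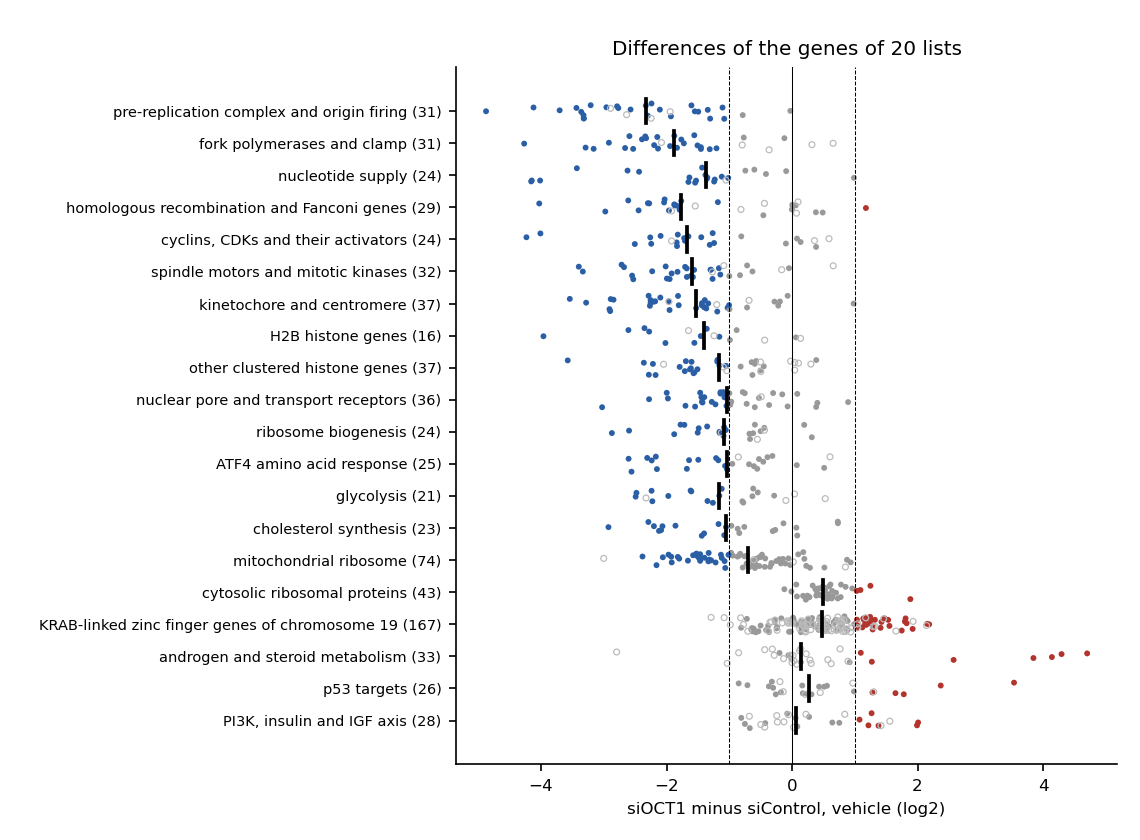
Difference in log2 signal, siOCT1 minus siControl in vehicle, of each gene of 20 lists (number of genes on the array in brackets). Filled points are members, coloured where at least 2-fold lower (blue) or higher (red), open points are not members, black bars are medians over all points, and points are spread vertically only to be seen. The bar of the pre-replication genes stands at -2.33 and that of the ribosomal protein genes at 0.50.

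Histone genes were examined together with their promoters, since the octamer is the motif OCT1 binds and is a known element of H2B promoters. Of the 16 H2B genes on the array, 12 were members, 9 at least 2-fold lower and 0 higher, with a median of -1.41. Of 37 other clustered histone genes, 27 were members, 19 at least 2-fold lower and 0 higher, with a median of -1.16. Among these, the linker histone H1-5 was at 14.84 and 11.27 (-3.57), H2AC11 at 14.79 and 12.43, H2AC14 at 16.73 and 14.56, and H3C2 at 12.80 and 10.58. Histone genes of a type are near copies of each other, so that probe sets can share transcripts and the genes are not independent.

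The octamer was searched, as an exact match only, on both strands of 300-base windows from 250 bases before to 50 after each RefSeq transcript start (GRCh38.p14). It was found in 13 of the 16 H2B genes, in 8 of them with its first printed base 44 to 50 bases before the start. The 70 bases before the start are shown for 6 H2B members with the octamer in that place and for 2 of the 3 H2B genes with none in their window, with the octamer in capitals; on these strands it reads as its reverse complement.
H2BC14 (chr6:27814952-27815021, plus strand): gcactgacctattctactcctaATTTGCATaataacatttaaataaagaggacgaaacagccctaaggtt
H2BC8 (chr6:26216689-26216758, minus strand): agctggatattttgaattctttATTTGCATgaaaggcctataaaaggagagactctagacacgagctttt
H2BC11 (chr6:27132796-27132865, minus strand): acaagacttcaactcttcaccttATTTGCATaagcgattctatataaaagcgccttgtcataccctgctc
H2BC12 (chr6:27146859-27146928, minus strand): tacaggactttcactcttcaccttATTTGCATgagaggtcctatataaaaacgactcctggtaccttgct
H2BC18 (chr1:149812371-149812440, minus strand): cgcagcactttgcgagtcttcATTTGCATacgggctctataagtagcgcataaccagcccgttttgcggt
H2BC21 (chr1:149886683-149886752, minus strand): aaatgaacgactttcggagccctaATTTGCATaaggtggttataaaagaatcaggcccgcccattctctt
H2BC13 (chr6:27807930-27807999, minus strand): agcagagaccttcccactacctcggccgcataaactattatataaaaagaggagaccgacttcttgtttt
H2BC26 (chr1:228458033-228458102, plus strand): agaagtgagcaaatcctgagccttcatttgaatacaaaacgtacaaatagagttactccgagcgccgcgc

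H2B genes with and without the octamer in the window are given side by side, with no test. H2BC14, H2BC8 and H2BC11, with the octamer at 47 or 48 bases, were at 12.87 and 8.91, at 10.71 and 8.10, and at 9.41 and 7.13 (the last at least 4.04-fold). H2BC12 (17.07 and 15.71) and H2BC18 (16.42 and 14.96) carried it at 46 and 49 bases and differed by -1.36 and -1.45. H2BC21, with an octamer at 46 bases, was at 11.06 and 11.13, a difference of 0.06.

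H2BC26 and H2BC13, with no exact octamer in the window, were at 9.81 and 7.46 and at 8.55 and 6.53. The printed H2BC26 sequence holds atttgaat, a near match that the exact search did not count, so having no octamer here does not exclude a variant site. Over all 16 genes, the 13 with an octamer, 4 of them below background on both arrays, had a median of -1.36, with 6 of their 9 members at least 2-fold lower, and the 3 without had a median of -2.02, with all 3 lower. Among the other clustered histone genes with a window, 7 held an octamer and 26 did not, and their medians were -1.57 and -0.93. All 7 with it were members, but only 16 of the 26 without it, and the rest lay below background on both arrays. The 7 were all H2A genes, many of which are known to share divergent promoters with H2B neighbours. H2A genes with a window and no octamer were H2AC13 (-1.79), H2AC15 (-0.63) and H2AC18 (-1.56). Octamer, histone type and dim signal cannot be told apart in these medians.

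**Figure D4:**
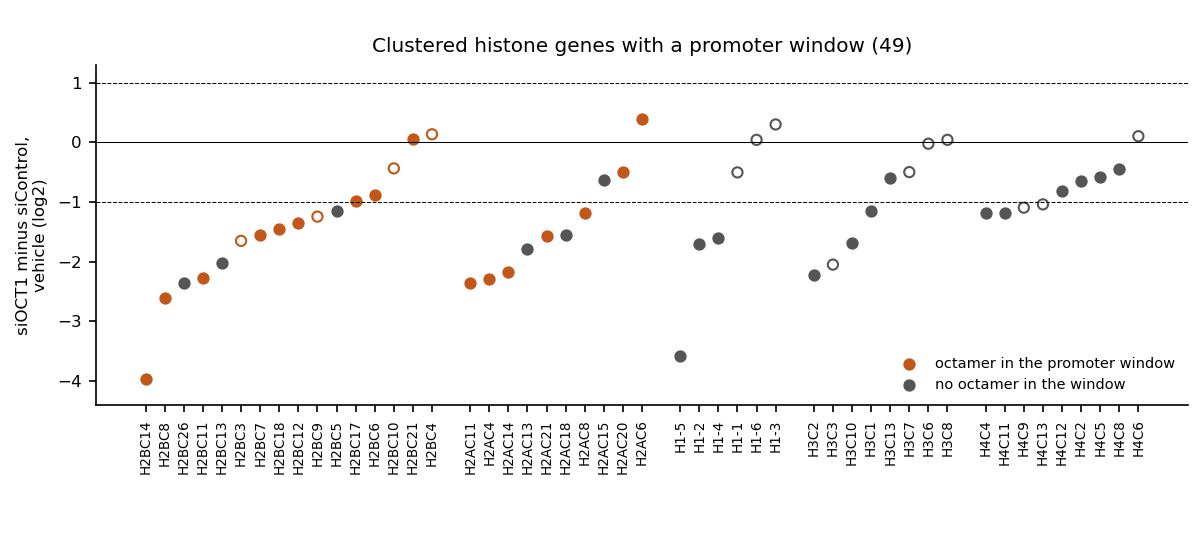
Difference in log2 signal, siOCT1 minus siControl in vehicle, of 49 clustered histone genes that have a promoter window, ordered within each histone type. Orange marks an octamer in the window and grey none, filled points are members and open points lie below background on both arrays. H2BC14 stands at -3.96, and H2BC21, which also holds the octamer, at 0.06.

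Across all members the octamer was rare in promoter windows of every set. RefSeq windows matched 6857 of the 8128 members, 1236 of those at least 2-fold lower and 750 of those higher. The octamer was in 1.58% of the promoter windows of genes at least 2-fold lower, in 1.20% of those at least 2-fold higher, in 1.25% of those of other members, and in 1.77% of all 35116 windows. The E2F site TTTGGCGC, bound by the E2F factors that control S-phase genes, was in 2.05% of windows of lower genes, 0.86% of higher genes, 0.926% of other members and 0.652% of all windows. The CHR element TTTGAA, known from promoters of mitosis genes, was in 12.2%, 11.8%, 9.97% and 15.2%, and CCAAT in 41.1%, 36.3%, 35.2% and 34.6%. The antioxidant response element core TGACNNNGC was in 14.8%, 12.6%, 15% and 13.3%. Motifs were searched separately on both strands and can overlap in a window, and the windows of these sets also differed in GC content, with medians of 65.7%, 63.3%, 64.7% and 58.7%.

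The E2F site was in windows of 34 genes at least 2-fold lower, among them DTL, CDC25A, E2F1, CDC6, MCM6 and TIPIN. The 4 listed genes of these with the lowest differences whose site lay well before the start are shown, chosen after their values were seen, with the site in capitals and up to 30 bases on either side.
CDC25A (chr3:48188424-48188491, minus strand): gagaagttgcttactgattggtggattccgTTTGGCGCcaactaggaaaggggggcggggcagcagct
E2F1 (chr20:33686386-33686435, minus strand): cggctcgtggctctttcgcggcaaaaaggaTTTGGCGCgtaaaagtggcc
MCM6 (chr2:135876558-135876625, minus strand): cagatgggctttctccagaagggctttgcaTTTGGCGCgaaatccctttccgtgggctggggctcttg
TIPIN (chr15:66356714-66356781, minus strand): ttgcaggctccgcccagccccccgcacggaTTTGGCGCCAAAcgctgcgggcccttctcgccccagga
In TIPIN, a fork protection factor, the site occurs on both strands with an overlap, and its signal differed by -2.33. Within the origin list, the 5 genes with the site had a median of -2.33 and the 22 others with a window one of -2.24.

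Genes of growth and biosynthesis were lower as well, with smaller medians. In ribosome biogenesis, 13 of 21 members were at least 2-fold lower and 0 higher (median -1.09, and 8 lower after centring on the positive controls); NOP16 was at 12.11 and 9.24, DDX21, an RNA helicase of the nucleolus, at 12.10 and 10.38, and fibrillarin (FBL) at 12.72 and 11.36. The cytosolic ribosomal protein genes went the other way. Of 43 on the array 41 had a difference above 0, and the median was 0.50 (0.71 after centring on the positive controls). At least 2-fold higher were 4: RPS19 (14.58 and 16.46), RPL31 (14.65 and 15.90), RPS14 (12.99 and 14.08) and RPL37 (14.36 and 15.39). These 4 of 43 are no larger a share than the 11.1% of all members that were higher. Values above 16 exceed the range of a 16-bit scanner on the log2 scale, so the scale may be stretched at its top.

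The mitochondrial ribosome, encoded by a separate set of genes, was on the lower side, with 26 of 70 members at least 2-fold lower, 0 higher and a median of -0.70. MRPL17 was at 12.17 and 9.78, and MRPL24 at 11.29 and 9.23. Of 58 respiratory chain and ATP synthase genes, 14 were lower and 0 higher (median -0.57, and 8 lower after centring on the positive controls). After that centring 1111 of all 8128 members were lower, a share near that of this list. CYCS, cytochrome c, was at 14.19 and 11.83 and ATP5MC1, a subunit of the ATP synthase ring, at 15.67 and 13.82. PDK1, the kinase that shuts off pyruvate dehydrogenase, was at least 3.89-fold lower (9.35 and 5.62).

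Genes of amino acid supply had lower signal in vehicle. In the ATF4 amino acid response, the programme that answers amino acid shortage, 13 of 23 members were at least 2-fold lower and 0 higher, with a median of -1.04. ASNS, asparagine synthetase, was at 13.29 and 10.73 (-2.56), the cationic amino acid transporter SLC7A1 at 12.52 and 9.92, the glutamine transporter SLC1A5 at 11.45 and 9.14, PYCR1, of proline synthesis, at 9.64 and 7.48, and the serine synthesis gene PSAT1 at 15.92 and 14.28. ATF4 itself was at 13.80 and 13.34. The translation repressor gene EIF4EBP1 was at 11.21 and 8.90.

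tRNA synthetase genes had differences below 0 in 16 of 16 (15 after centring on the positive controls), with 5 at least 2-fold lower; WARS1 was at 12.82 and 10.74 and AARS1 at 13.07 and 11.39. Chaperones of the endoplasmic reticulum were lower in 12 of 31 members and higher in 1 (median -0.61), led by PDIA4 (10.69 and 7.89), MANF (10.77 and 8.06), CRELD2 (10.28 and 7.64) and HSPA5 (15.16 and 12.96). After centring on the positive controls 11 were lower and 3 higher (median -0.40). Proteasome subunits had a median of -0.77, with PSMD2 at 11.78 and 9.67.

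In carbon and lipid metabolism, 11 of 17 members among the glycolysis genes were at least 2-fold lower and 0 higher (median -1.16). LDHA, lactate dehydrogenase, was at 16.28 and 14.05, PGK1 at 12.93 and 10.71, ENO1 at 16.28 and 14.68, ALDOC at 12.28 and 9.79, and the glucose transporter SLC2A1 at 10.88 and 9.62. In cholesterol synthesis 12 of 23 were lower and 0 higher (median -1.05), with ACAT2 at 11.56 and 8.64, SQLE at 11.52 and 9.45 and HMGCS1 at 13.05 and 11.19. SREBF1, a regulator of lipid synthesis, was at 13.83 and 11.16, and its target SCD, the stearoyl-CoA desaturase, at 15.59 and 12.81. ABCA1, which exports cholesterol, was on the other side, at least 4.87-fold higher (4.25 and 8.91), and APOE was at 6.77 and 8.70.

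Nuclear pore and transport receptor genes were lower in 19 of 35 members and higher in 0 (median -1.04, and 13 lower and 1 higher after centring on the positive controls). SEH1L was at 12.04 and 9.01, NUP210 at 11.08 and 8.81, RANBP1 at 11.98 and 9.98, and NUP133 at 10.06 and 8.08. The list of 22 genes often used as references was not level either, with 5 at least 2-fold lower, 0 higher and a median of -0.61 (3 lower and a median of -0.39 after centring on the positive controls); it included HPRT1 at 10.63 and 9.02 and POLR2A at 12.29 and 10.82.

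Steroid metabolism genes showed some of the highest differences, in a few genes rather than across the list. Of 33 on the array 12 were members, 7 of them at least 2-fold higher and 0 lower, while the median over all 33 was 0.14. The 7 were AKR1C1, AKR1C2 and AKR1C3, neighbours that share most of their sequence, UGT2B15 and UGT2B17 (5.20 and 7.78, at least 2.23-fold), which inactivate androgens by glucuronidation and are close relatives, HSD17B11 (13.47 and 14.57) and CYP1A1 (8.13 and 9.40). AKR1C3, UGT2B15 and UGT2B17 were members through the siOCT1 array alone, so their direction follows from the rule.

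Androgen-regulated genes were compared although no androgen was added. Of 34 androgen-induced genes on the array 22 were members, 4 of them at least 2-fold higher and 7 lower, with a median of 0.05 over all 34. CAMKK2, a kinase, was at 8.38 and 9.87, HPGD, which degrades prostaglandins, at 11.78 and 13.49, and C1orf116 at 12.31 and 14.47, while PMEPA1, a brake on TGF-beta signalling, differed by -2.15, and DBI was at 11.07 and 8.87. The kallikrein gene KLK2 was at 7.04 and 4.13, with no bound, and KLK3, which encodes PSA, was below background on both arrays.

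Of 12 members among the androgen-repressed genes, 4 were at least 2-fold higher and 1 lower, with a median of 0.73 (0.14 with values raised to the higher background). The higher genes included SI and UGT2B15, named above, and IGFBP3, which binds insulin-like growth factors, at 13.06 and 15.07. SI and UGT2B15 were members through the siOCT1 array alone, so their direction follows from the rule. Prostate lineage genes had a median of 0.56, with 3 of 12 members higher and 0 lower. The 3 were TMEFF2, a prostate membrane protein, at 10.29 and 12.46, PIAS1 at 13.24 and 14.65, and GATA3 at 6.60 and 7.92 (at least 2.45-fold). GATA3 was a member through the siOCT1 array alone. FOLH1, which encodes the prostate-specific membrane antigen, was at 14.69 and 15.68, just under 2-fold.

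Among nuclear receptor coregulators NRIP1, a corepressor, was at 7.75 and 10.41, and NCOA2 at 11.11 and 12.78. NR3C1, the glucocorticoid receptor gene, was at least 3.03-fold higher (6.55 and 8.22), and NR4A1 at least 2.23-fold lower (8.55 and 6.43). Of the OCT and POU factor genes, 15 were on the array and only POU6F1 was a member, at 7.69 and 5.49 (at least 1.23-fold lower).

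Of 26 targets of p53 on the array 20 were members, and 5 of these were at least 2-fold higher and 0 lower, with a median of 0.27. Besides TP53I3 and CDKN1A these were CCNG1 (12.91 and 15.28), the stress sensor SESN1 (7.32 and 9.10) and TP53INP1 (11.30 and 12.58). TP53I3 was a member through the siOCT1 array alone. MDM2, at 10.89 and 11.33, and GADD45A, at 7.96 and 7.59, were under 2-fold. In the PI3K, insulin and IGF axis, 6 of 16 members were higher and 0 lower (median 0.07 over 28 genes). TXNIP, which restrains glucose uptake, was at 12.66 and 14.66, PIK3R1 at 10.36 and 11.63, FOXO3 at 8.46 and 9.54, and RICTOR, the scaffold of mTORC2, at 7.49 and 8.86.

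Signalling genes outside these lists went both ways. BMP2 was at 10.66 and 12.95, and SKIL, a repressor of SMAD signalling, at 8.45 and 9.99. TEAD2 was at 9.90 and 12.01. EGR1, an immediate early gene, was at 9.22 and 7.73. SNAI2, a repressor of epithelial genes, was at 8.32 and 4.27 (at least 1.90-fold lower). In iron and polyamine handling, FTL, the ferritin light chain, was at 13.50 and 14.97, AMD1 at 14.25 and 15.97 and SAT1, which breaks polyamines down, at 8.77 and 10.72, while the iron importer gene TFRC was at 13.17 and 12.02. The polyamine list had 2 higher and 2 lower members, the lower ones being MAT2B (10.99 and 9.36) and OAZ2 (8.25 and 7.19, the latter below background). Of 30 interferon-stimulated genes on the array 4 were members, and 0 of them passed 2-fold.

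Zinc finger genes, in a list drawn mostly from the KRAB gene clusters of chromosome 19, which encode repressors of transposons, had a median of 0.47 over 167 genes. Of the 97 members 28 were at least 2-fold higher and 0 lower, and 131 of the 167 differences were above 0. ZNF737 was at 8.82 and 10.97, ZNF480 at 7.52 and 9.34, ZNF91 at 8.18 and 9.99 and ZNF254 at 12.64 and 14.43. These genes resemble each other, so their probe sets may share transcripts.

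Some runs of neighbouring members had differences of 1 direction. With members placed in RefSeq gene order, 6 histone genes in succession from H2BC13 to H4C11 were lower by 2-fold or more in plain difference, H3C10 among them with a bound of only 1.11-fold (7.54 and 5.85). The 6 beta protocadherin members, PCDHB2, PCDHB8, PCDHB9, PCDHB11, PCDHB13 and PCDHB16, which encode neuronal adhesion proteins, were higher, with PCDHB2 at 7.27 and 9.65 and PCDHB11 at 8.51 and 10.47; over all 16 beta protocadherins the median was 1.78, and 10 lay below background on both arrays. HOXB5 (at least 1.85-fold), HOXB6 and HOXB7 were higher, HOXB7 at 6.99 and 8.49, while HOXB13, the prostate HOX gene, was at 10.62 and 11.21. PCDHB9, PCDHB13, PCDHB16, HOXB5 and HOXB6 were members through the siOCT1 array alone, where they are high, so their direction follows from the rule. These runs were picked after their values were seen, and copies within a run share sequence.

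The vehicle differences were set beside those of the DHT pair, which shares no array with them but was normalised together with them. Of the 1483 members at least 2-fold lower in vehicle, 816 (55.0%) were at least 2-fold lower in DHT, where 13.9% of all 8128 members were, and 1423 had a difference below 0. Of the 899 higher in vehicle, 387 (43.0%) were at least 2-fold higher in DHT, where 8.03% of all members were, and 828 had a difference above 0. The medians of these sets in DHT were -1.10 against -1.53 in vehicle for the lower genes, and 0.86 against 1.41 for the higher ones. The sets were selected on their vehicle values, so their vehicle medians are a description and were not compared with those in DHT.

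List medians differed between the pairs in both directions. The median of origin genes was -2.33 in vehicle and -1.76 in DHT, that of H2B genes -1.41 and -0.90, of ribosome biogenesis -1.09 and -0.50, and of the ATF4 response -1.04 and -0.31. Spindle genes had -1.60 and -1.93, kinetochore genes -1.53 and -1.86, and chaperones of the endoplasmic reticulum -0.61 and -1.19. Ribosomal protein genes were at 0.50 and 0.82, and the zinc finger genes at 0.47 and 0.11. None of these differences between pairs was tested.

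**Figure D5:**
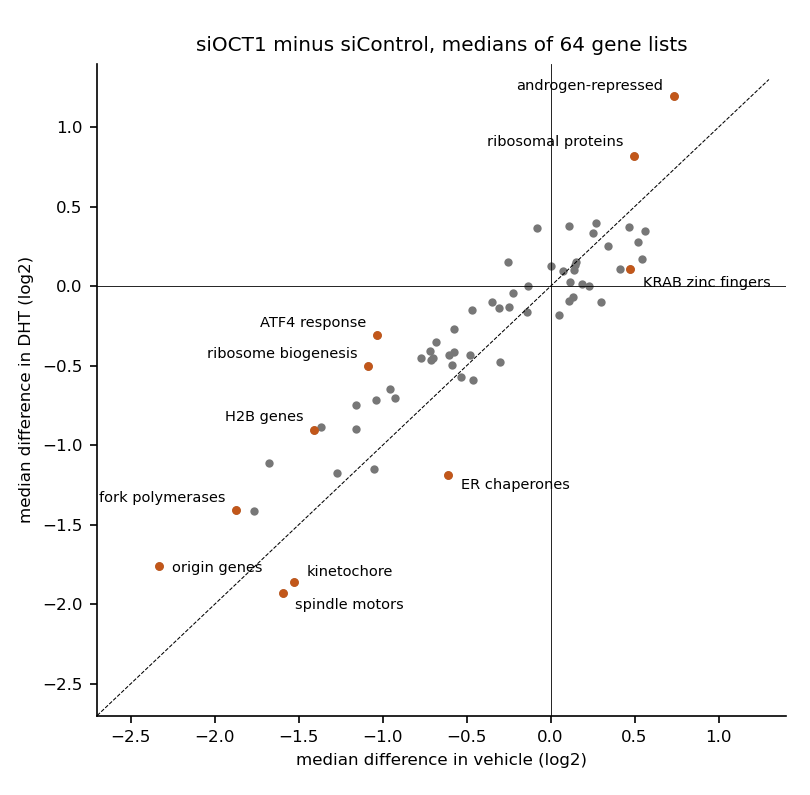
Median difference in log2 signal, siOCT1 minus siControl, of 64 gene lists in vehicle (horizontal) and in DHT (vertical), 1 point per list with 11 named. On the dashed line both medians are equal; origin genes lie at -2.33 and -1.76, ER chaperones at -0.61 and -1.19.

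Some genes past 2-fold in vehicle had smaller differences in DHT, a few of them near 0. NUP133 had differences of -1.98 in vehicle and -0.05 in DHT. UNG, uracil DNA glycosylase, was at 8.48 and 7.05 in vehicle (at least 2.13-fold lower) and differed by 0.14 in DHT, and TMEM64, above background on both DHT arrays, differed there by -0.47. ASNS had -2.56 and -0.66, SLC7A1 -2.60 and -0.85, PYCR1 -2.15 and -0.45, and NOP16 -2.87 and -0.81. Among higher genes, ZNF480 had 1.83 and -0.06 and ZNF91 1.81 and 0.07. NRIP1 had 2.66 and 0.75, and TFPI, still over 4-fold higher in DHT, 4.43 and 2.25.

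A few genes pointed in opposite directions. RICTOR had 1.38 in vehicle and -0.83 in DHT, and FOXO3 1.08 and -0.76. Of the members, 3 were past 2-fold in opposite directions in the pairs, and 1 of these was above background on all 4 arrays, CYP1A1, a target of the aryl hydrocarbon receptor, singled out after its values were seen. Its signals were 8.13 with siControl and 9.40 with siOCT1 in vehicle, and 9.39 and 8.12 in DHT.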

How the data were processed

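RNA of 22Rv1 cultures was hybridised to whole-transcript arrays, 1 per group, grouped by the labels. The log base of the deposited values is not stated, and they were read as log2 signals from their range, on which every fold given here depends. Per the submitters' processing notes the authors used Affymetrix Expression Console and RMA; versions and genome build are not given in the sources used here. The method gives the arrays a common distribution, so a change in total RNA per cell would not be seen, and 327 to 379 values per array exceed 16. Of 24351 probe sets, 17709 had 1 symbol and gave 17687 genes; for the 20 genes with more than 1 probe set, the brightest on average was taken. Differences are siOCT1 minus siControl, counted at 2-fold, with no test. A gene below background on 1 array has the brighter value over that background as "at least N-fold", and none where this is not above 1-fold. List medians run over all list genes on the array with no filter.

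The members and the 64 lists were chosen with earlier results of these data known. Named genes were the 15 highest and 15 lowest differences above background on both arrays, the 8 largest bounds each way, up to 4 members per list by size, and genes that define a list's main steps; uncharacterised symbols were passed over in the first rules. Subgroups such as septins were picked later. Alternatives changed the fold, background filter, centring, scale, probe set choice and symbols. Promoter windows are from RefSeq (GRCh38.p14). The counting code was run on simulated data with little noise and with changes placed only in bright genes. Recovery was required at 4-fold and 8-fold only, so the run does not cover dim genes or counts at 2-fold. Python 3.11.15 with numpy 2.4.6, pandas 2.3.3, statsmodels 0.14.6 and matplotlib 3.10.9 was used.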

Additional observations from a re-analysis of the deposited data

Results flagged for a closer look

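CYP1A1 stood out because its differences pointed in opposite directions in the pairs, 1.27 in vehicle and -1.27 in DHT, each from 1 array per side; the difference between the pairs was not tested.

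Probe sets for transcripts with no gene symbol here are outside the comparison above. Of 3739, 1149 lay above background on at least 1 vehicle array, and 133 of these were at least 2-fold higher and 172 at least 2-fold lower with siOCT1. Their share past 2-fold (11.6% higher, 15% lower) can be set beside that of the named members, 11.1% and 18.2%. Of the negative controls, 46 lay above the same background, with 47.8% higher and 32.6% lower. That background was set on the negative controls themselves, so these 46 are their brightest and give no yardstick for other probe sets.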

How the results depend on the processing

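The count of members at least 2-fold higher (899) and lower (1483) was 1726 and 2439 at 1.5-fold and 161 and 379 at 4-fold. With no filter on dim genes 1370 were higher, and with only genes above background on both arrays 927 were lower. The other 18 counts lay within 1.5 times the main one. Of 319 list medians recomputed under an alternative 14 moved by over 1.5-fold, and of 789 values of named genes 7 did, those with 32 added before the logarithm. Centring on the positive controls changed the sign of 3 medians (mismatch and excision repair, neuroendocrine, and TGF-beta and BMP genes, all near 0) and of 1 of 263 named genes, and loess centring the sign of 1 median (stromal, endothelial and immune markers); none of these was past 2-fold. No paired analysis was possible because each group held 1 array and the labels carry no replicate numbers; for the same reason no replicate could be left out. Signal over background limits dim genes: 681 members below background on 1 array have no bound above 1-fold.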

Other observations

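Further lists, described here by counts and medians on the deposited scale with no test, showed smaller or mixed differences. On that scale 18.2% of all members were at least 2-fold lower and 11.1% higher, and a list count near those shares sets the list apart in no way. Splicing factors were lower in 12 of 42 genes and higher in 0 (median -0.71), with SNRPF at 10.86 and 8.83 and SF3B3 at 11.90 and 10.03. Amino acid and nutrient transporters were lower in 10 of 16 members and higher in 0 (median -0.96), among them the folate carrier SLC19A1 at 9.77 and 7.77. Among replication-independent histone genes H2AX was at 12.39 and 9.79, while 3 of 7 members were lower and 0 higher. In the list of chromatin silencers, 7 of 14 members were lower and 2 higher (3 and 3 after centring on the positive controls); the maintenance methyltransferase gene DNMT1 was at 8.68 and 6.70 (at least 2.44-fold lower), HELLS at 10.22 and 7.93, EZH2 at 9.58 and 9.75, and JARID2 at 7.50 and 8.68.

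Translation factors were lower in 7 of 36 and higher in 4 (4 lower and 5 higher after that centring). On the deposited scale this is near the shares of all members, 18.2% lower and 11.1% higher. EIF2S3 was at 13.06 and 11.06 and EEF1D at 13.83 and 15.44. Cytosolic chaperones were lower in 8 of 25 (5 after that centring) and higher in 0, with CCT7 at 12.28 and 10.49. Hypoxia-inducible genes were lower in 7 of 16 members and higher in 2, with BNIP3 at 14.38 and 11.79 and ANKRD37 at least 2.93-fold higher. Pentose phosphate and NRF2 target genes were lower in 7 of 19 members and higher in 2, HMOX1 and FTL (3 and 3 after that centring), while the glutathione genes GCLM (at least 3.0-fold lower) and GSR (14.21 and 12.85) were on the other side. Genes of fatty acid oxidation were higher in 1 of 20 members (2 after that centring) and lower in 0 (median 0.23). In fatty acid synthesis 6 of 13 members were lower and 0 higher, and the median of -0.59 became 0.00 with values raised to the higher background. Autophagy and lysosome genes were higher in 2 of 28 members (3 after that centring) and lower in 1, with ATG14 at 8.50 and 10.37 and cathepsin L (CTSL) at 9.65 and 8.21.

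Among identity lists, luminal epithelial markers were higher in 4 of 18 members (7 after that centring) and lower in 2, with CD24 at 10.70 and 13.47 and the splicing regulator ESRP1 at 13.52 and 15.30. Neuroendocrine genes were higher in 0 of 8 members and lower in 1, SYT4, at 11.76 and 10.33. Basal and mesenchymal genes held 3 members, of which SNAI2 was past 2-fold. In the list of stromal, endothelial and immune markers, which also held secreted and contractile genes, 2 were higher: ALB, the albumin gene, at 11.04 and 13.35, and ACTA2 at least 2.19-fold. Circadian clock genes were lower in 2 of 7 members and higher in 0 (1 after that centring), with CLOCK at 9.24 and 7.57 and CIART at least 2.65-fold. The apoptosis genes APAF1 (a difference of 1.37) and CASP6 (10.05 and 11.25) were higher, 2 of 15 members of their list (3 after that centring). On the deposited scale that is near the 11.1% of all members that were higher. Of 5 members among the NF-kB and cytokine genes 1 was higher, REL, and 1 lower, NFKB2 (at least 4.15-fold).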
